A study of Mus musculus with 8 samples.

Results

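Caveolins and cavins are the proteins that build caveolae, and the 6 members of these families followed here (*Cav1*, *Cav2*, *Cav3*, *Cavin1*, *Cavin2* and *Cavin3*) were taken by gene symbol from the 55414 genes measured by RNA-seq in B16F10 mouse melanoma cells. The families were selected on the TPM of *Cav2*, which was higher in the cyclophilin D (CypD) knockout libraries than in wild type, so the values of the members in the knockout are a description and carry no test. Of the 6 members, 4 were detected in every library, and *Cav3* and *Cavin3* were listed at 0 in all 8.

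Caveolae are small flask-shaped pits of the plasma membrane, rich in cholesterol, that buffer membrane tension and gather signaling receptors. Caveolins sit in the inner leaflet of the membrane: Cav1 drives formation of the pits in most cells, Cav2 travels to the surface in complexes with Cav1, and Cav3 takes the place of Cav1 in muscle. Cavins form a cytoplasmic coat over the caveolin scaffold. Cavin1 is needed for caveolae to form, while Cavin2 and Cavin3 join the coat through Cavin1 and shape it or link it to signaling.

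The 4 groups had 2 libraries each, all from cells kept for 24 h in the stated oxygen. WT is the parental B16F10 line at 21% oxygen. CypD KO cells, also at 21% oxygen, carry a CRISPR/Cas9 disruption of *Ppif*, the gene that encodes CypD, a mitochondrial peptidyl-prolyl isomerase that promotes opening of the permeability transition pore, and come from clones selected in puromycin. Control cells hold pcDNA without an insert and CypD OE cells hold pcDNA with *Ppif*, with both selected in G418 as resistant stable cells and kept at 1% oxygen. How many clones stand behind a library, and whether the 2 libraries of a group are separate cultures, is not given in the sources used here, so the p-values measure only the spread between these libraries, which may be technical.

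*Ppif* was at 50.7 and 50.0 TPM (a transcript level scaled to transcript length and to the same library total) in WT, 10.4 and 12.1 in CypD KO, 44.6 and 42.3 in Control, and 50.3 and 49.3 in CypD OE. The last pair are named by their label throughout, since their *Ppif* level was 1.15-fold that of Control (limma adjusted p = 0.0794), and every direction drawn from CypD OE rests on that label. All 7 melanocyte lineage markers were detected in every library (*Tyr* the lowest, at 37.4 TPM or above). Of 24 markers of fibroblasts, endothelium, adipocytes, muscle and macrophages, the first 4 of them known for abundant caveolins, 17 stayed under 1 TPM in all 8 libraries and 8 were at 0, among them *Cdh5*, *Tie1*, *Adipoq*, *Dcn*, *Myod1* and *Adgre1*. The summed fibroblast markers were at 15.6 to 17.7 TPM in WT, 34.2 to 37.2 in CypD KO, 19.0 to 21.0 in Control and 9.23 to 11.3 in CypD OE, mostly *Postn* and *Col1a2*, with *Dcn* at 0 and *Lum* at or under 0.08. The summed macrophage markers were at 3.5 to 3.84, 22.3 to 23.4, 4.20 to 4.81 and 1.15 to 1.91 TPM in the same order, almost all of it *Cd68*, with *Adgre1* at 0 and *Ptprc* at or under 0.02. Both sums had the group order of *Cav1* given below. CypD KO came first in the fibroblast sum through *Postn* (33.0 TPM in CypD KO on average and 6.66 to 8.88 TPM in the other groups). *Col1a2* was lowest in CypD KO, at 1.09 and 2.17 TPM, and highest in Control, at 11.4 and 9.65 TPM. Its means were 7.95 TPM in WT and 3.02 TPM in CypD OE. Of 6 hypoxia-responsive genes (*Vegfa*, *Slc2a1*, *Pdk1*, *Bnip3*, *Car9* and *Ndrg1*), 6 were lower in both libraries labelled CypD OE than in both Control libraries. This was so although all 4 libraries are labelled 1% oxygen. Against both WT libraries, 5 were higher in both CypD KO libraries, although all 4 are labelled 21% oxygen. The exception was *Ndrg1*, lower in CypD KO (27.57 and 29.15 TPM) than in WT (33.28 and 33.25 TPM). How many of all genes separated in this way was not counted. By limma adjusted p under 0.05, 18.3% of all genes tested were lower in CypD OE than in Control. In CypD KO, 30.1% were higher and 18.4% lower than in WT. The paper reports more HIF1α protein, a hypoxia-inducible factor, after loss of CypD in normoxia. It also reports less of it after CypD overexpression in mild hypoxia. The part of these differences between the groups in the results below was not tested.

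*Cav1* (ENSMUSG00000007655, chr6:17306140-17341451, plus strand of GRCm39) and *Cav2* (ENSMUSG00000000058, chr6:17281026-17289877, plus strand) are neighbors, with 16.3 kb from the end of *Cav2* to the start of *Cav1*. *Cav3* lies far along the same chromosome (ENSMUSG00000062694, chr6:112436466-112449833, plus strand). The cavins are dispersed, *Cavin1* on chromosome 11 (ENSMUSG00000004044, chr11:100847559-100861713, minus strand), *Cavin2* on chromosome 1 (ENSMUSG00000045954, chr1:51328266-51345710, plus strand) and *Cavin3* on chromosome 7 (ENSMUSG00000037060, chr7:105128391-105131507, minus strand). Each has a multi-exon protein-coding transcript as its canonical form, with 3 exons in *Cav1* and *Cav2* and 2 exons in the other 4 genes.

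The 250 bases before the start of the canonical transcript are shown for the 3 members whose levels moved most, read 5′ to 3′ on the strand of the gene from GRCm39. Capitals mark ACGTG, a form of the core of the hypoxia response element. It was searched on both strands because oxygen and hypoxia-responsive genes differ among the groups. The other core form, GCGTG, was not searched, so the matches counted below are to ACGTG only. The *Cav1* window is chr6:17305890-17306139 (plus strand), the *Cav2* window chr6:17280934-17281183 (plus strand) and the *Cavin1* window chr11:100861714-100861963 (minus strand).
Cav1: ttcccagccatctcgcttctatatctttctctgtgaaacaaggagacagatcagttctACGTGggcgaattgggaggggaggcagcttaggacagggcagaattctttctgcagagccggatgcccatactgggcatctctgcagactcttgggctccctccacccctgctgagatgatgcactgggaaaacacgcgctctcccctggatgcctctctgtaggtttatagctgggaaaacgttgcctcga
Cav2: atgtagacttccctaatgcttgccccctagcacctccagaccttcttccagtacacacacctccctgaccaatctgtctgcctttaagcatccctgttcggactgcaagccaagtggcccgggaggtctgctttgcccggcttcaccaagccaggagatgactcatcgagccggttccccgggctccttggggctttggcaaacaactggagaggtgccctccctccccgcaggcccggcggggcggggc
Cavin1: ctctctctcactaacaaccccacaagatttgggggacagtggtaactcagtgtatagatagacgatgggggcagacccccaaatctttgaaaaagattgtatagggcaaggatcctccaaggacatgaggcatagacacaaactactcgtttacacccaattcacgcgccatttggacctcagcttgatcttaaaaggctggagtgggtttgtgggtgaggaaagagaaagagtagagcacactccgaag
*Cav1* held 1 match, on its own strand from base -192 to base -188 before the start. The windows of the other 5 members held 0 matches. Among windows of the same length before 21757 protein-coding genes, 3698 (17%) held at least 1 match, and 6.26% held CACGTG, the E-box letters that contain the core and that none of the members had. The GC content was 54% for *Cav1*, 62% for *Cav2* and 47.6% for *Cavin1*, against a median of 53.2% over all windows. A match of 5 letters is a description of the sequence and not of a bound site.

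*Cav1*, the caveolin that builds the pits, varied most among the members, over a span of 2.92 on the log2(TPM + 1) scale. It was at 6.70 and 7.35 TPM in WT, 40.5 and 42.9 TPM in CypD KO, 15.4 and 16.5 TPM in Control, and 5.50 and 4.79 TPM in CypD OE as labelled. The order was thus CypD KO, Control, WT and CypD OE, and no library of a group overlapped with those of the next group in that order. *Vegfa*, a hypoxia-responsive gene, was likewise higher in CypD KO (77.2 TPM) and Control (58.6 TPM) than in WT (13.3 TPM) and CypD OE (14.98 TPM). Unlike *Cav1* and *Vegfa*, the genes *Slc2a1*, *Pdk1*, *Bnip3*, *Car9* and *Ndrg1* were highest in Control. Their means in Control and CypD KO were 73.95 and 55.55, 107 and 61.9, 309 and 254, 15.39 and 7.435, and 47.9 and 28.4 TPM. *Ndrg1* was also lower in CypD KO than in WT (33.3 TPM). The part of these genes in the *Cav1* differences was not tested.

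*Cav2*, the partner of *Cav1*, was the most abundant member in every library. Its level was 46.8 and 49.3 TPM in WT, 149 and 142 TPM in CypD KO, 50.0 and 46.7 TPM in Control, and 68.1 and 58.65 TPM in CypD OE. CypD KO stood above all other groups and CypD OE came second, whereas the WT and Control libraries overlapped. *Cav2* and *Cav1* therefore had different orders of groups although they are neighbors, with CypD OE last for *Cav1* and second for *Cav2*.

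*Cavin1*, the core coat protein, was at 24.6 and 25.1 TPM in WT, 17.9 and 18.1 TPM in CypD KO, 31.3 and 32.1 TPM in Control, and 14.2 and 13.4 TPM in CypD OE. The order was Control, WT, CypD KO and CypD OE, again without overlap between neighbors in the order. Both groups with altered *Ppif* by label were below the group they are compared with.

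*Cavin2*, which encodes a phosphatidylserine-binding coat protein, was at 41.3 and 44.0 TPM in WT, 44.3 and 47.2 TPM in CypD KO, 45.8 and 45.3 TPM in Control, and 45.8 and 42.3 TPM in CypD OE. All 8 libraries thus lay within a span of 0.187 on the log2(TPM + 1) scale, and each group overlapped with the next in the order. It was the steadiest of the 4 detected members.

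*Cav3*, the muscle caveolin, and *Cavin3*, a protein kinase C-binding coat protein, were listed at 0 in all 8 libraries. At the approximate depth of these libraries, 3 fragments would correspond to 0.259 to 0.307 TPM for *Cav3* and to 0.105 to 0.124 TPM for *Cavin3*. The 3 fragments are a chosen reference and not a limit of detection, since fewer could also give a value above 0. The detected members rested on many more fragments, approximately 154 to 1247 per library for *Cav1*, 1664 to 5735 for *Cav2*, 536 to 1170 for *Cavin1* and 2916 to 3561 for *Cavin2*. These numbers cover counting error only. Antisense genes annotated over the members and present in the table were at or under 0.08 TPM, but whether strand was used in counting is not given in the sources used here, so their reads cannot be separated from those of the members.

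**Figure D1:**
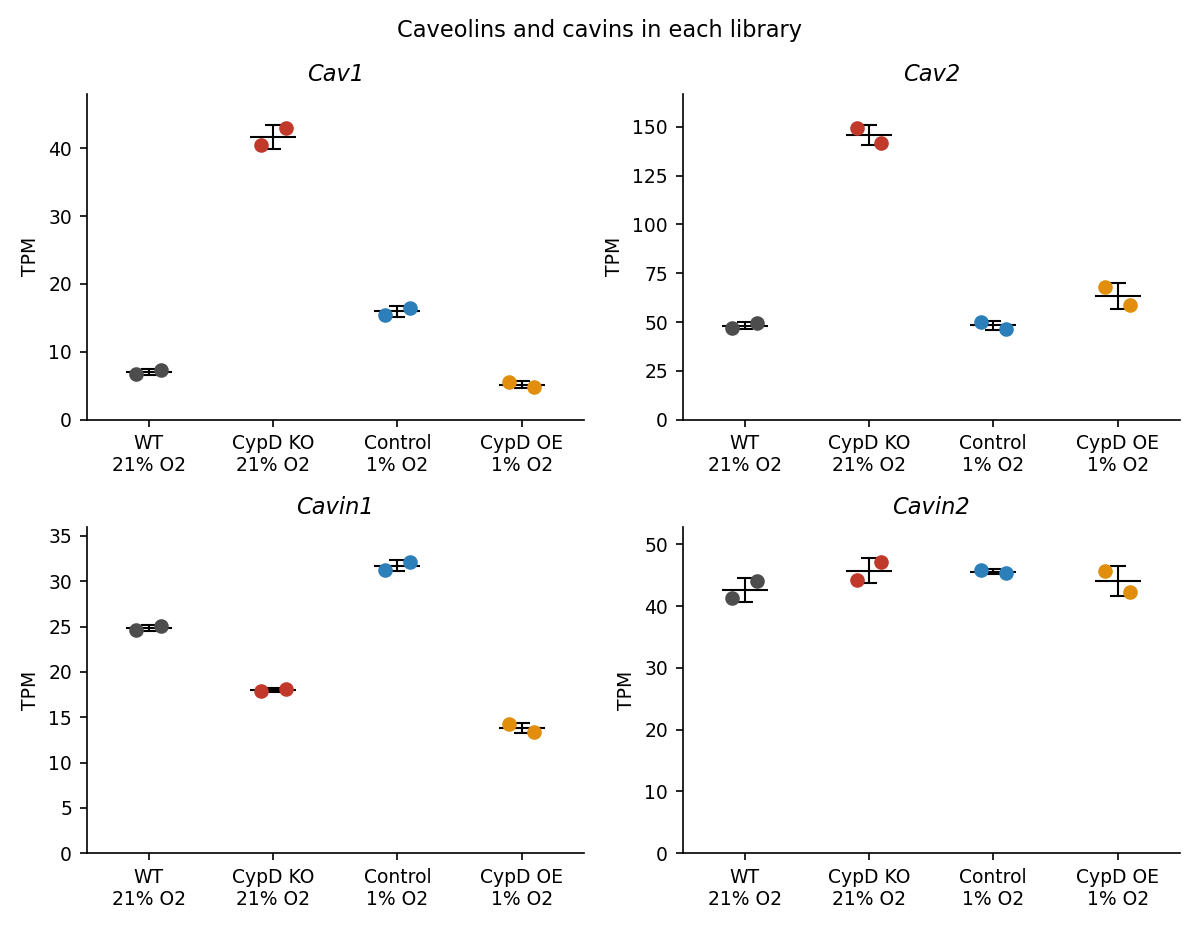
TPM (vertical axes, from 0) of the 4 detected members in each of the 4 groups, with each library as a point and the mean and SD (n = 2) in black. *Cav1* and *Cav2* are highest in CypD KO (41.7 and 146 TPM on average), *Cavin1* is highest in Control (31.7 TPM), and *Cavin2* lies between 41.3 and 47.2 TPM in all libraries.

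Cells labelled CypD OE and their vector Control, both labelled 1% oxygen, are compared here as their labels stand. *Ppif* in CypD OE was 1.15-fold that of Control (limma adjusted p = 0.0794), and all 6 hypoxia-responsive genes were lower in CypD OE. The paper states that CypD overexpression in the stable cells was checked by western blot, a protein measure not available here. An effect of added CypD under hypoxia was not tested apart from other differences between these cells. The rule that chose the members used the knockout comparison and not this one, although earlier results of both were known. In a limma fit on log2(TPM + 1) over 13526 genes, *Cav1* and *Cavin1* fell and *Cav2* rose in the libraries labelled CypD OE, and *Cavin2* did not pass the threshold. That is 3 of the 4 members tested, where 37.4% of all genes tested passed, 19% higher and 18.3% lower. *Cav1* dropped from 15.9 ± 0.799 TPM to 5.14 ± 0.502 TPM (SD, n = 2), to 32.3% of the Control level, with a log2 difference of -1.46 (standard error 0.09, limma adjusted p = 6.47e-05). *Cavin1* dropped from 31.7 ± 0.594 TPM to 13.8 ± 0.587 TPM, to 43.5% of Control, with a log2 difference of -1.14 (standard error 0.06, limma adjusted p = 2.77e-05). *Cav2* rose from 48.4 ± 2.33 TPM to 63.4 ± 6.66 TPM, by a log2 difference of 0.38 (standard error 0.08, limma adjusted p = 0.00875). This call was lost without the second Control library, where the limma adjusted p was 0.0512, against a range from 0.00595 to 0.0423 in the other alternatives. *Cavin2* was at 45.6 ± 0.361 TPM in Control and 44.0 ± 2.46 TPM in CypD OE, a log2 difference of -0.05 with a 95% interval from -0.19 to 0.10 (limma adjusted p = 0.567). RNA was pooled over all cells of a culture, so a lower level cannot be told apart from fewer cells expressing the gene.

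CypD KO and WT cells, both at 21% oxygen, differ in *Ppif* disruption, puromycin selection and origin from clones together, and these cannot be told apart. Here both detected caveolins were higher and *Cavin1* was lower in CypD KO, and no test is given because this contrast chose the families. *Cav1* was at 41.7 ± 1.74 TPM in CypD KO and 7.03 ± 0.460 TPM in WT (SD, n = 2), 5.93-fold higher, with a log2 difference of 2.41 (standard error 0.09). *Cav2*, whose rise was the reason for the choice, was 3.03-fold higher, with a log2 difference of 1.58 (standard error 0.08). The *Cav1* difference was therefore larger than that of the gene that prompted the selection. *Cavin1* in CypD KO was at 72.4% of the WT level, a log2 difference of -0.44 (standard error 0.06). *Cavin2* differed by 0.10 (standard error 0.06) on the log2 scale, and by -0.01 after median-of-ratios rescaling of the TPM values. In this contrast 48.4% of all genes passed the threshold, 30.1% higher and 18.4% lower (4066 and 2486 genes), a split that became 3204 higher and 3481 lower after the rescaling.

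Control and WT cells differ in oxygen, vector and G418 selection together, and these cannot be told apart. *Cav1* was 2.27-fold higher in Control, with a log2 difference of 1.08 (standard error 0.09). *Cav2* differed by 0.01 (standard error 0.08) and its libraries overlapped. *Cavin1* was 1.28-fold higher, a log2 difference of 0.34 (standard error 0.06), and *Cavin2* differed by 0.09 (standard error 0.06). *Cav1* was thus higher without its neighbor *Cav2* in this contrast, whereas both were higher in CypD KO. Since the WT libraries also entered the comparison that chose the families, and the Control libraries the one with CypD OE, the 3 comparisons are not independent and no test is given here. Of all genes, 24.2% passed the threshold, 12.1% higher and 12.1% lower.

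**Figure D2:**
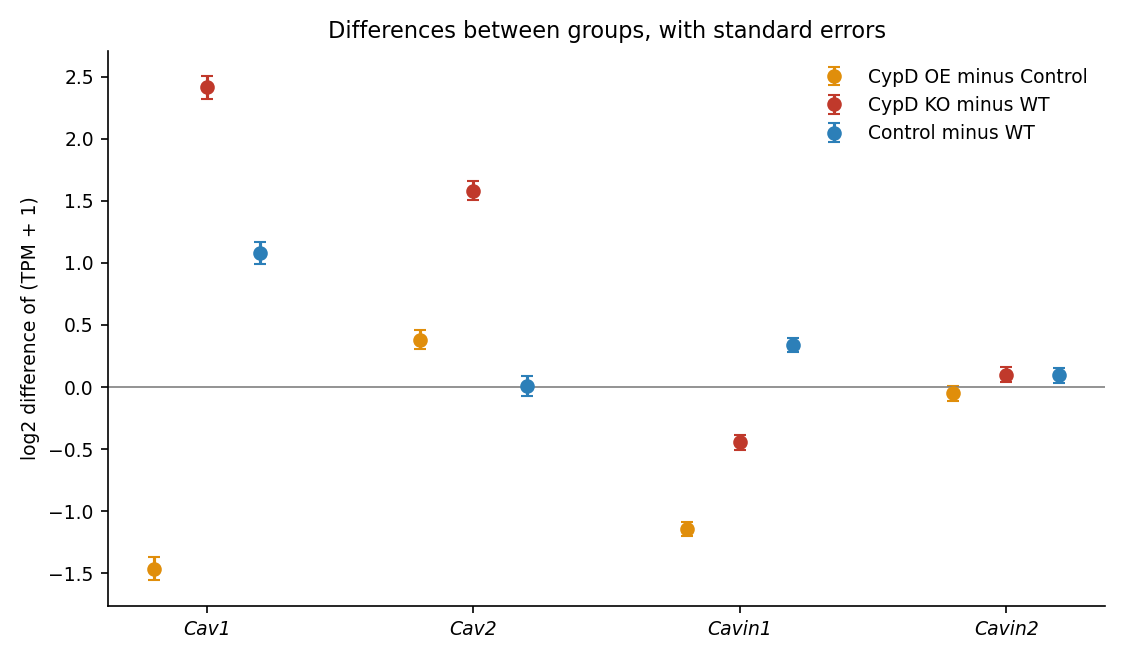
Log2 difference of (TPM + 1) on the vertical axis for the 4 detected members, in 3 comparisons shown by color, with standard errors from the limma fit as bars. *Cav1* runs from -1.46 for CypD OE minus Control to 2.41 for CypD KO minus WT, *Cav2* from 0.01 to 1.58, and *Cavin2* stays between -0.05 and 0.10.

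Ratios within a library do not depend on the scaling of that library. The ratio of *Cav2* to *Cav1* was 6.98 and 6.71 in WT, 3.69 and 3.31 in CypD KO, 3.25 and 2.83 in Control, and 12.4 and 12.2 in CypD OE. *Cav1* accordingly made up 12.8% of the summed caveolin TPM in WT, 22.3% in CypD KO, 24.8% in Control and 7.51% in CypD OE. The change of the ratio from Control to CypD OE was 2.02 on the log2 scale, and the exact two-sided permutation test gave p = 0.333, the smallest that 2 libraries against 2 can reach.

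The balance of coat to scaffold also differed among groups. *Cavin1* transcripts stood at 3.67 and 3.42 times *Cav1* in WT, 0.442 and 0.423 times in CypD KO, 2.03 and 1.94 times in Control, and 2.59 and 2.79 times in CypD OE. CypD KO was the only group with less *Cavin1* than *Cav1* by TPM. The summed TPM of *Cav1* and *Cav2* was 55.1 ± 2.22 in WT, 187 ± 3.37 in CypD KO, 64.3 ± 1.53 in Control and 68.5 ± 7.16 in CypD OE (SD, n = 2). The summed TPM of *Cavin1* and *Cavin2* moved less, at 67.5 ± 2.26, 63.7 ± 2.21, 77.3 ± 0.233 and 57.8 ± 3.05 in the same order. Caveolin transcripts were therefore 2.94 ± 0.155 times the cavin transcripts in CypD KO, against 0.815 ± 0.00564 times in WT, 0.832 ± 0.0224 times in Control and 1.18 ± 0.0615 times in CypD OE. The caveolin sum in CypD KO is mostly *Cav2* (145.6 TPM on average), whose rise there chose the families. The CypD KO sums and ratios are thus a description only. These are transcript levels, and protein was not measured in these files.

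**Figure D3:**
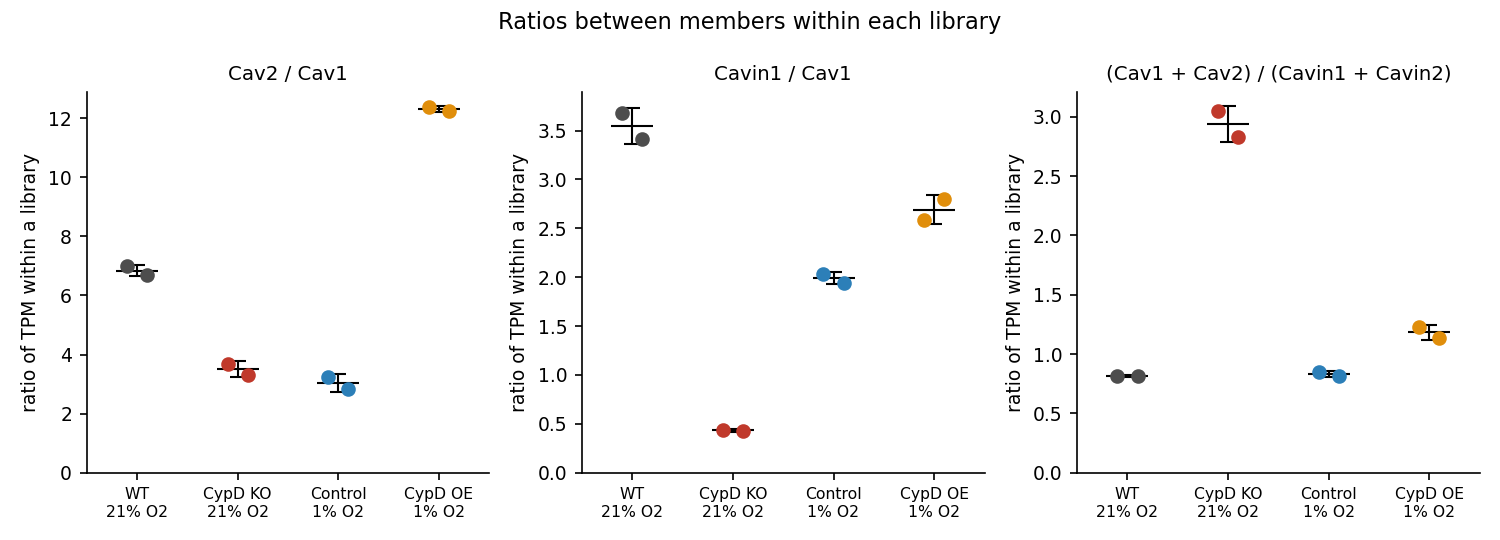
Ratios of TPM within each library (vertical axes, from 0) for *Cav2* to *Cav1*, *Cavin1* to *Cav1* and summed caveolins to summed cavins, by group, with each library as a point and the mean and SD (n = 2) in black. The *Cav2* to *Cav1* ratio is highest in CypD OE (12.3 on average), and the ratio of caveolins to cavins is highest in CypD KO (2.94). That sum of caveolins holds *Cav2*, whose rise in CypD KO chose the families.

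Genes around *Cav1* and *Cav2* were described because the 2 caveolins are adjacent. Within 500 kb of either gene the annotation lists 29 other genes, of which 22 are in the table and 5 passed the filter of at least 1 TPM in at least 2 libraries. *Tes*, which encodes the focal adhesion protein testin, was at 49.5 and 50.1 TPM in WT, 147 and 137 TPM in CypD KO, 77.8 and 76.7 TPM in Control, and 65.9 and 65.3 TPM in CypD OE. It was 1.49 higher on the log2 scale in CypD KO than in WT (standard error 0.04), close in size to the 1.58 of *Cav2*, and it fell by 0.23 in the libraries labelled CypD OE (standard error 0.04, limma adjusted p = 0.00666). *Met*, the hepatocyte growth factor receptor, was at 240 and 246 TPM in WT, 417.7 and 400.2 TPM in CypD KO, 387 and 402 TPM in Control, and 145 and 133 TPM in CypD OE. Its log2 difference was 0.75 for CypD KO minus WT (standard error 0.05) and -1.50 for CypD OE minus Control (standard error 0.05, limma adjusted p = 3.27e-06), the second close to the -1.46 of *Cav1*.

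Of the 3 other neighbors, 2 rose in the libraries labelled CypD OE and 1 did not pass. Beside these calls and those of *Tes* and *Met*, 37.4% of all genes tested passed in this contrast, 19% higher and 18.3% lower. *Capza2*, an actin-capping subunit, rose by 0.46 in the libraries labelled CypD OE (standard error 0.04, limma adjusted p = 0.000212) and *St7* rose by 0.69 (standard error 0.07, limma adjusted p = 0.000413). In CypD KO minus WT their log2 differences were 0.19 and 0.43. *Gm4876*, a noncoding gene antisense to *Tes*, had a difference of -0.19 in CypD OE minus Control (standard error 0.24, limma adjusted p = 0.587) and of 0.84 in CypD KO minus WT (standard error 0.24), beside the 0.75 of *Met*.

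**Figure D4:**
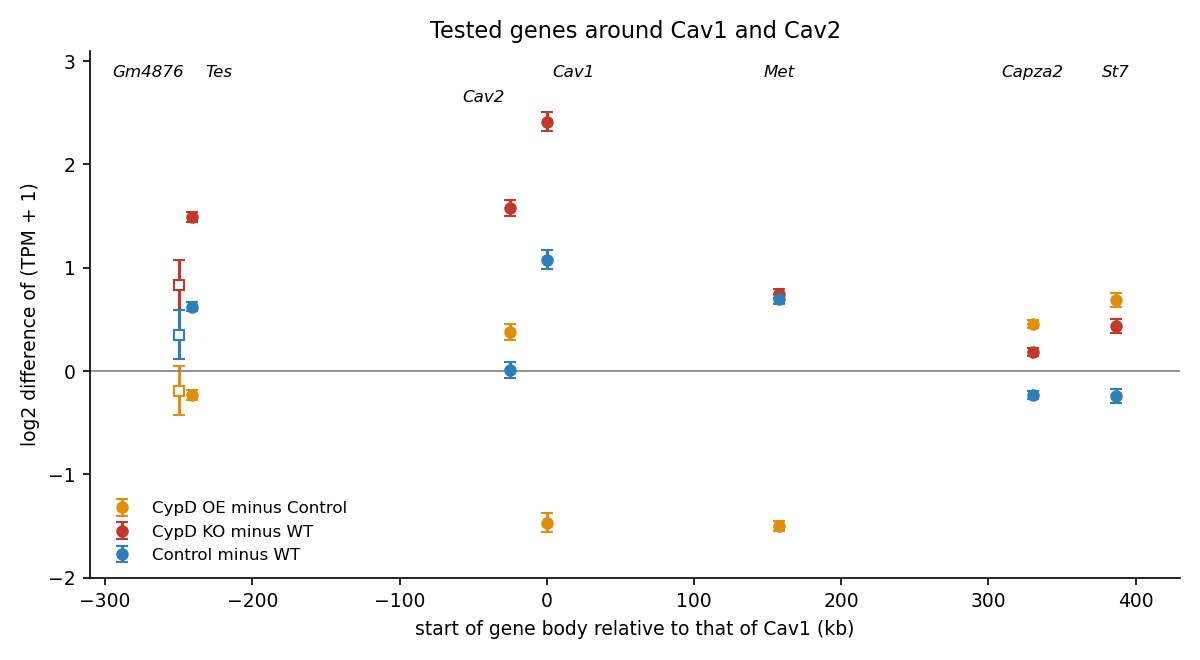
Log2 difference of (TPM + 1) on the vertical axis for the 5 tested neighbors and the 2 caveolins, against the distance in kb from the start of *Cav1* to the start of each gene body, with limma standard errors as bars and 3 comparisons by color. *Gm4876* (open squares) is drawn slightly left of its place. *Cav1* and *Met* share low values for CypD OE minus Control (-1.46 and -1.50), whereas *Cav2*, *Capza2* and *St7* lie above 0.

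Caveola-associated genes were followed as a list of 20 genes, of which 13 passed the filter. In the libraries labelled CypD OE, 9 of the 13 rose and 0 fell against Control, where 19% and 18.3% of all genes did. At an unadjusted limma p under 0.05 the numbers were also 9 and 0. The median log2 difference was 0.39 for the list and 0.002 for all genes tested. The EHD proteins are membrane-bound ATPases at the neck of caveolae and on recycling endosomes. *Ehd4* was at 25.9 and 27.4 TPM in CypD OE against 12.4 and 11.8 TPM in Control, a log2 difference of 1.08 (standard error 0.09, limma adjusted p = 0.000183). *Ehd1* was at 63.1 and 59.6 TPM against 29.4 and 30.02 TPM, a difference of 1.02 (standard error 0.06, limma adjusted p = 3.69e-05). *Ehd3* was at 53.2 and 55.8 TPM against 30.1 and 32.1 TPM, a difference of 0.79 (standard error 0.06, limma adjusted p = 0.000101). *Ehd2*, the EHD protein best known at caveolae, was low at 2.40 and 2.86 TPM against 2.12 and 2.58 TPM and did not pass (limma adjusted p = 0.546). The Src-family kinase gene *Fyn* rose by 0.60 (standard error 0.07, limma adjusted p = 0.000803), from 38.96 and 36.6 TPM to 57.0 and 58.1 TPM. *Cav1* and *Cavin1* thus fell in the same libraries in which these 4 genes rose.

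For CypD KO minus WT, the contrast that chose the families, counts over the lists are given as a description. Here 10 of the 13 caveola-associated genes passed with higher and 0 with lower levels, beside 30.1% and 18.4% of all genes (limma, also 10 and 0 at an unadjusted p under 0.05). The median log2 difference was 0.50, against 0.09 over all genes. *Flna*, an actin cross-linker that binds Cav1, was at 353 and 345 TPM in CypD KO and 160 and 162 TPM in WT, a difference of 1.11 (standard error 0.03). *Trpc1*, a cation channel subunit, was at 3.27 and 2.80 TPM against 1.00 and 1.04 TPM. *Src*, the kinase that phosphorylates Cav1, was at 36.0 and 34.5 TPM against 19.8 and 17.4 TPM, and *Insr*, the insulin receptor, at 9.58 and 9.20 TPM against 5.84 and 5.53 TPM. In Control minus WT, 0 were higher and 3 were lower (*Ehd4*, *Ehd1* and *Pacsin2*, with log2 differences of -0.58, -0.20 and -0.19), beside 12.1% in each direction over all genes (limma, 1 and 3 at an unadjusted p under 0.05), and 1 gene of the list passed without the first or the second Control library or without the second WT library.

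**Figure D5:**
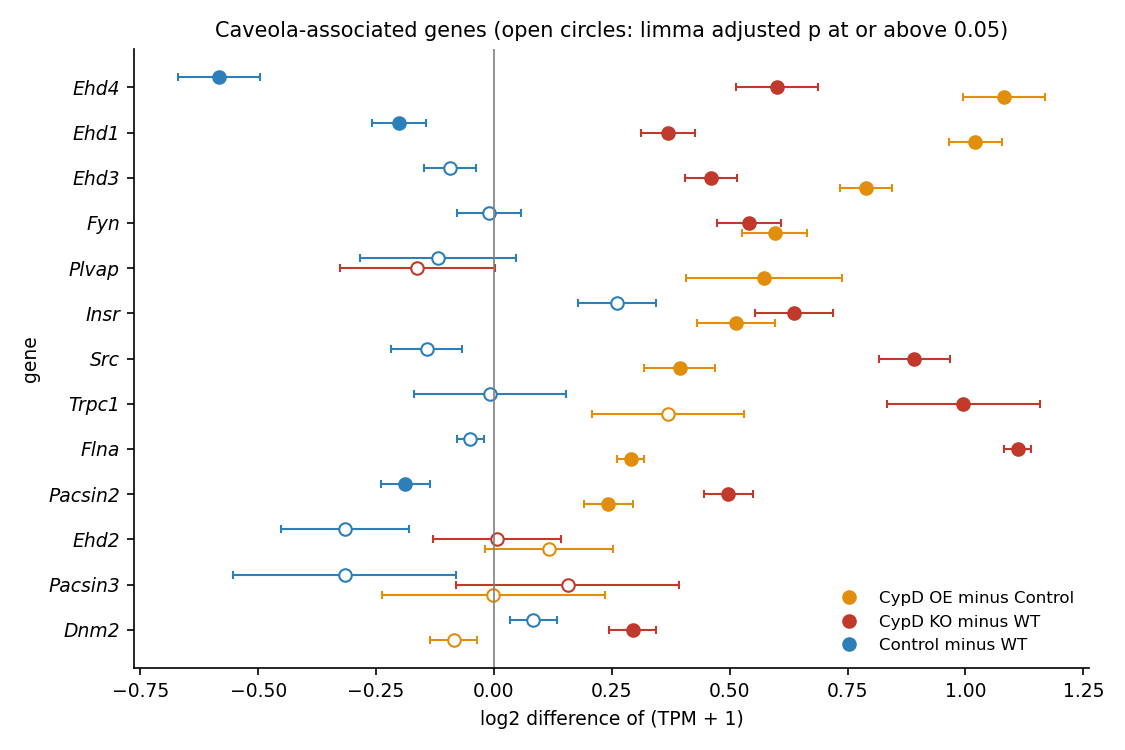
Log2 difference of (TPM + 1) on the horizontal axis for the 13 tested caveola-associated genes, with limma standard errors as bars and 3 comparisons by color, filled where the limma adjusted p was under 0.05. The filled points of CypD OE minus Control (9 genes) and of CypD KO minus WT (10 genes) all lie to the right of 0, and the 3 of Control minus WT to the left.

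Scaffolds of other membrane domains served for comparison. Of 8 genes for flotillins, stomatins and erlins, 7 were tested. *Stoml2*, a mitochondrial inner membrane stomatin, was the 1 gene of the list that passed in CypD OE minus Control, with a log2 difference of 0.21 (standard error 0.05, limma adjusted p = 0.0128). That call was lost without either CypD OE library (limma adjusted p = 0.0613 and 0.0538) or without the second Control library (0.0604). The 1 of 7 called stood beside 37.4% of all genes. Over the list the median log2 difference was -0.24, against 0.002 over all genes. *Erlin2* (-0.40, limma adjusted p = 0.0537) and *Stom* (-0.24, limma adjusted p = 0.0541) were lower but did not pass. With the filter of 5 TPM, 1 gene was called higher and 2 lower, and with no filter 2 higher and 0 lower. In CypD KO minus WT, 4 of the 7 were higher and 1 lower, beside 30.1% and 18.4% of all genes and again as a description. *Stom*, which encodes stomatin, was at 41.1 and 36.4 TPM in CypD KO against 11.7 and 11.2 TPM in WT, a difference of 1.67 (standard error 0.08). *Erlin2* and *Erlin1*, scaffolds of the endoplasmic reticulum, differed by 0.67 and 0.51, and *Stoml2* by -0.39. In Control minus WT, *Erlin2* was higher by 0.58 and *Stoml2* differed by -0.41, the 2 calls of the list (24.2% of all genes were called), and 1 gene passed without the first or the second Control library or without the first WT library.

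Clathrin-coated pits are the other main coated structure of the plasma membrane, and 13 of 14 coat genes were tested. In CypD OE minus Control, 2 rose and 5 fell (15.4% and 38.5%), beside 19% and 18.3% of all genes, with a median log2 difference of -0.05 against 0.002 over all genes. Among them were *Cltb*, a clathrin light chain, which rose by 0.49 (standard error 0.07, limma adjusted p = 0.00262), and *Ap2m1* and *Ap2s1*, subunits of the AP-2 adaptor, with differences of -0.49 (standard error 0.03, limma adjusted p = 9.94e-05) and -0.46 (standard error 0.05, limma adjusted p = 0.000457). *Epn1*, an adaptor that bends membrane, differed by -0.33 (standard error 0.06, limma adjusted p = 0.0062). In CypD KO minus WT, as a description, 4 were higher and 3 lower (30.8% and 23.1%), near the 30.1% and 18.4% of all genes, with a median of 0.06 against 0.09. The numbers were 6 and 3 at an unadjusted limma p under 0.05, and 2 higher and 3 lower by adjusted p after median-of-ratios rescaling. *Cltb* was at 100.7 and 93.5 TPM in CypD KO against 50.3 and 47.3 TPM in WT, a difference of 0.98 (standard error 0.07). *Picalm*, an adaptor that recruits clathrin, differed by 0.44, *Epn1* by -0.34 and *Clta*, the other light chain, by -0.30. Without the second WT library 4 genes of the list passed instead of 7. In Control minus WT, 3 were higher and 0 lower, beside 12.1% in each direction over all genes (limma, 5 and 1 at an unadjusted p under 0.05), namely *Ap2m1* (0.39), *Ap2s1* (0.29) and *Ap2b1* (0.18).

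The genes whose levels followed each member most closely were ranked by Pearson's r of log2(TPM + 1) over the 8 libraries, among 3886 genes that spanned at least 1 on that scale. These 8 points share libraries and form 4 groups, so r mainly reflects the 4 group means, and the values are a description. *Cav1* was followed by *Mxd4* (r = 0.997), *Pakap* (r = 0.996) and *Psap* (r = 0.993). *Cav2* was followed by *Cast* (r = 0.999), *Samd9l* (r = 0.997) and *Plcl1* (r = 0.996). *Cavin1* was followed by *Ttbk1* (r = 0.997), *Trpm1* (r = 0.993) and *Sema6d* (r = 0.988), and *Trpm1* ran from 10.1 TPM in CypD OE to 361 TPM in Control on average. *Cavin2*, whose own span was only 0.187, reached r = 0.908 with *Gm37375*, 0.900 with *Iqck* and 0.881 with *2500002B13Rik*, and *Gm37375* was low, at 0.745 to 2.24 TPM on average. Between members, r was 0.758 for *Cav1* with *Cav2*, 0.168 for *Cav1* with *Cavin1* and -0.49 for *Cav2* with *Cavin1*. Each closest gene was picked as the highest among 3886, so its r cannot be set against that of a pair of members.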

How the data were processed

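Total RNA of 8 B16F10 libraries was sequenced after ribosomal RNA depletion. The authors trimmed reads with cutadapt (version 3.4), aligned them to Ensembl GRCm39 with STAR (version 2.7.8a) and quantified genes with RSEM (version 1.3.1), and the deposited values are TPM per gene, with 2 decimals. Of the sample columns, 0 could not be mapped to a sample. Counts were not used here. Groups come from the sample labels.

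The members and gene lists were chosen with earlier results of these data known. Differences were fitted with limma (version 3.58.1, R version 4.3.3) on log2(TPM + 1) with a mean per group over the 8 libraries and an intensity trend, two-sided, for 13526 genes that reached 1 TPM in 2 or more libraries, with Benjamini-Hochberg adjustment and a threshold of 0.05. Log2 differences on this scale understate changes of low genes. The fit was tested on simulated data. Named were all members, *Ppif*, tested genes within 500 kb of *Cav1* or *Cav2*, the 3 genes most like each member and, per list and comparison, at most 4 genes past the threshold, largest difference first. *Ehd2* was added after its values were seen. Depth is approximate: 1 fragment was worth 0.082 to 0.0975 TPM per kb of effective length, judged from the steps between low values. Gene models and sequence are from GENCODE and GRCm39, the build of the authors.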

Additional observations from a re-analysis of the deposited data

How the results depend on the processing

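Over the alternatives run (pseudocount of 0.1, no filter or one at 5 TPM, rescaling by median of ratios, the 4 libraries compared alone, limma without a trend, a replicate block, and each library left out), *Cav1* and *Cavin1* kept their direction and their call for CypD OE minus Control. The number of members called was 3 in every one except without the second Control library, with a range of 2 to 3 over the fits with a library left out. For *Cavin2* the log2 difference ran from -0.11 to 0.0060 with a library left out, the second value (limma adjusted p = 0.963, range 0.319 to 0.963) without the second CypD OE library. For *Gm4876* it ran from -0.50 to 0.13, with 0.05 (limma adjusted p = 0.920) without that library and 0.13 (limma adjusted p = 0.710) without the first Control library, where the adjusted p ranged from 0.152 to 0.920. The causes were not tested.

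For scaffolds of other membrane domains in CypD OE minus Control, the number called was 2 with a pseudocount of 0.1, no filter, rescaling, 4 libraries or the replicate block, 3 with the filter of 5 TPM, and 0 to 2 with a library left out, with 0 without the second CypD OE library (limma, 1 higher and 1 lower at an unadjusted p under 0.05) and 0 without the second Control library (1 and 0). The clathrin coat genes called for CypD KO minus WT numbered 4 without a trend and 4 to 6 with a library left out. For Control minus WT, with no filter or with 4 libraries, 1 caveola-associated and 1 scaffold gene passed, and 1 caveola-associated gene passed with the replicate block. With a library left out, 1 to 2 of each list passed. Over all genes, 1981 passed with 4 libraries and 2009 to 2109 with a library left out. Leaving out a library left a group with 1, assumed to vary like the others.

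Same-numbered libraries had deviations correlated at -0.00175 (CypD OE and Control), 0.108 (CypD KO and WT) and -0.0186 (Control and WT) over 2 pairs, so the number was not taken to pair them. With the replicate block 4735, 6285 and 2886 genes passed, and all 3 members called for CypD OE minus Control were called again. With 2 libraries a group and TPM only, counts were not modelled.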
